A study of Mus musculus with 35 samples.

Results

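Mural cells of the mouse hippocampus, the pericytes and vascular smooth muscle cells that sit on the outer face of brain vessels, made up 533 of the 142840 nuclei barcodes with 500 or more detected genes, which is 0.373% of them. The 14 nuclei libraries came from frozen hippocampus of C57BL/6 mice aged 9 months and were made with the 10x Genomics 3' v3 chemistry. A barcode was counted as mural when the unique molecular identifiers (UMIs) of Pdgfrb, Rgs5, Abcc9, Atp13a5, Notch3 and Acta2 summed to 4 or more, came from 2 or more of these genes and were 0.1% or more of its UMIs. It also had to hold at most 2 UMIs of Flt1 and Cldn5 together, at most 2 of Dcn and Col1a2, 0 of Pdgfra and at most 3 of Snap25 and Rbfox3, which mark endothelial cells, fibroblasts, oligodendrocyte precursors and neurons.

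The nuclei libraries fell into 4 genotypes. Wild-type mice (WT) and PS19 mice gave 3 libraries each, and CLEAR mutant mice and CLEAR mutant mice crossed with PS19 (CLEAR_PS19) gave 4 each. One library of each genotype was from a female and the others were from males. PS19 mice carry a mutant human tau transgene driven by the mouse prion promoter, which is active in neurons and was not chosen for vessel cells. The CLEAR mutant, as far as the study is known, carries an altered binding site of the transcription factor TFEB at Atp6v1h, the gene of a subunit of the proton pump that acidifies lysosomes. Bulk RNA-seq was limited to the hippocampus of WT and PS19 animals, with 5 WT and 4 PS19 libraries at 9 months and 6 of each at 4 months. The labels call the libraries replicates without naming the animals, so p-values measure the spread between these libraries, and PS19 bulk replicate 2 at 9 months was not used here.

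Pericytes are embedded in the basement membrane of capillaries and share it with the endothelium. Platelet-derived growth factor from endothelial cells recruits them through the receptor Pdgfrb, and Notch signalling through Notch3 maintains them and the smooth muscle of arterioles. Both regulate vessel diameter through calcium entry, potassium channels and the cyclic GMP pathway, and smooth muscle cells in addition carry an actin and myosin apparatus encoded by Acta2, Myh11, Tagln and related genes.

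The start regions of 5 genes that the results below turn on are shown first. Atp13a5 supplied 51.6% of the UMIs that selected the nuclei, Kcnj8 and Abcc9 encode the pore and the regulatory subunit of one ATP-sensitive potassium channel and lie beside each other on chromosome 6, Slc38a11 was not detected in endothelial or fibroblast nuclei, and Myl9 held the contractile motif. Each line gives the 250 bases before the start, 5′ to 3′ on the gene's strand, from RefSeq on GRCm38.p6, with matches to any motif searched in capitals.
Atp13a5, minus strand, chr16:29378733-29378982: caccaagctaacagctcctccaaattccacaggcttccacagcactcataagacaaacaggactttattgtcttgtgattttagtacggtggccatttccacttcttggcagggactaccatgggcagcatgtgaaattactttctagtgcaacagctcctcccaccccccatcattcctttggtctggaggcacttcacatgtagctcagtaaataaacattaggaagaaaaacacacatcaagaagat
Kcnj8, minus strand, chr6:142571615-142571864: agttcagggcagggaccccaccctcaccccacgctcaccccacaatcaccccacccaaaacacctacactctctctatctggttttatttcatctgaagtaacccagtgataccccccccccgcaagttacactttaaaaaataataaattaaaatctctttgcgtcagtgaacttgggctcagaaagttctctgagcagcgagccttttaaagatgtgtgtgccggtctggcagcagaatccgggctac
Abcc9, minus strand, chr6:142702275-142702524: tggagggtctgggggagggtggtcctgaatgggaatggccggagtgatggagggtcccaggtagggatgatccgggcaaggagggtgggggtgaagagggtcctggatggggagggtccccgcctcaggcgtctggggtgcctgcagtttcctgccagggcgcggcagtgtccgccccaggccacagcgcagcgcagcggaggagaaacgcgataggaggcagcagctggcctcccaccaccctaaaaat
Slc38a11, minus strand, chr2:65364027-65364276: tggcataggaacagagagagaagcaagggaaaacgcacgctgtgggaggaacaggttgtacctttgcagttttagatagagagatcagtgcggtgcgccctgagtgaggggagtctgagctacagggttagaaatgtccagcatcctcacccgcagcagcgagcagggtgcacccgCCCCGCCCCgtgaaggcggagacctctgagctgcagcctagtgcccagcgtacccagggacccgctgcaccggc
Myl9, plus strand, chr2:156775214-156775463: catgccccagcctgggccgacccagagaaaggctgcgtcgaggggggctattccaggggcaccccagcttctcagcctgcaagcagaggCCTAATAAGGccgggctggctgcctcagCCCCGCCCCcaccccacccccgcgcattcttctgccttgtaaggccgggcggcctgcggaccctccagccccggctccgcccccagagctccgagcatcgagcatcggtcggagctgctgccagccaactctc

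These windows were searched on both strands for the palindromic core bound by EBF factors, for the core letters bound by T-box factors (GGTGTGA), RBPJ (GTGGGAA) and SP factors (GGGGCGGGG), for the CACGTG E-box that TFEB can bind, and for the strict CArG box bound by serum response factor, which is CC, then 6 bases that are each A or T, then GG. Of 51 mural genes (the 6 selecting genes, 3 marker lists and the 20 leading genes described below), 38 had a window. The only strict CArG box among them, with variants that break these letters not counted, was CCTAATAAGG in Myl9, from 161 to 152 bases before the start. Strict CArG boxes occurred in 1.40% of all 27025 mouse windows. Only Tbx18 held the RBPJ letters, which were in 5.41% of all windows, and none of the 38 held the EBF core or the T-box or CACGTG letters, which were in 0.788%, 3.31% and 6.05%. The SP letters occurred in 9 of the 38, in Slc38a11, Notch3, Atp2a3, Rem1, Tbx3os1, Des, Myl9, Cspg4 and Mcam, and in 10.5% of all windows. A match describes the letters only and is not a measured binding site.

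The rule fixed the levels of the 6 selecting genes, so they are a description and no check of the label, for which markers outside the rule are given below. Atp13a5, a cation-transporting ATPase found in brain pericytes, had a UMI in 93.2% of the mural nuclei, Pdgfrb in 90.2%, Notch3 in 67.7%, Abcc9 in 59.8%, Rgs5, a regulator of G protein signalling, in 53.5% and Acta2, smooth muscle actin, in 3.94%. Summed over nuclei, Atp13a5 stood at 4168 CPM (UMIs of a gene scaled to an equal UMI total) in mural nuclei against 6.17 in all other barcodes, Pdgfrb at 1526 against 4.67 and Abcc9 at 788 against 0.287. CPM is not corrected for gene length, so levels are compared between cells and libraries and not between genes. At the edge of the rule, 19 members had exactly 4 UMIs of the selecting genes, and 22 barcodes with 3 UMIs met every other condition. The median member had 13.

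Mural nuclei were shallow. Their median depth was 1426 UMIs and 867 genes, with a range of 747 to 8721 UMIs, whereas the median over all barcodes of a library ran from 3479 to 8670 UMIs. Any 2 libraries shared 10 to 70 barcode sequences and none of the mural barcodes was shared. No doublets were removed. Barcodes that held 10 or more UMIs of another cell type's markers were counted in their place, and there were 22 for oligodendrocytes, 15 for astrocytes, 9 for neurons, 7 each for fibroblasts and microglia and 0 for endothelial cells, oligodendrocyte precursors and choroid plexus. The rule itself limited marker genes of endothelial cells, fibroblasts, precursors and neurons. It therefore held those counts down, and they are no check of mixing with these cells. CLEAR_PS19 replicates 2 and 4 gave only 8 and 6 mural nuclei and were left out of the gene tests.

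The genes that marked mural nuclei beyond the rule were of several kinds. Ranked by the ratio of CPM in mural nuclei to that in all other barcodes, the first 20 included Gm16064, Gm36823, Tbx3os1, Cysltr2, Kcnj8, Carmn, Rem1, Vtn, Atp2a3, Ndufa4l2, Slc38a11, Pla1a, Pla2r1, Higd1b, Tbx2, Tbx3, Heyl, Ggt1 and Gm12158. Cells chosen by co-expressed genes must show such genes, so the ranking is a description. A group of 3 shares one stretch of chromosome 5: Tbx3, a T-box repressor, the antisense transcript Tbx3os1 and Gm16064 lie together, and Tbx3os1 overlaps both of the others. Tbx3os1 lies on the minus strand and Tbx3 and Gm16064 on the plus strand. Strand of the counting is not given in the sources used here, and whether the overlapping genes share reads was not tested. Kcnj8 and the selecting gene Abcc9 are neighbours too, with 16.2 kb between them on chromosome 6. Gm12158 is an antisense transcript inside Ebf1 on chromosome 11.

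Membrane transport genes separated mural nuclei from their vascular neighbours to different degrees. Slc38a11, a member of the SLC38 amino acid transporter family, had a UMI in 74.3% of mural nuclei and 0.783% of other barcodes, and stood at 1049 CPM against 0 UMIs in 513 endothelial and 156 fibroblast nuclei. Slc6a20a, a proline transporter, stood at 1596 CPM in mural and 1929 CPM in fibroblast nuclei and so did not tell these apart. Slc2a1, the endothelial glucose transporter, went the other way with 16.2 CPM in mural and 745 in endothelial nuclei.

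Channels and vasoactive receptors formed the second group. Kcnj8 stood at 300 CPM in mural nuclei against 2.09 in endothelial nuclei, and the calcium-activated chloride channel Ano1 at 660 against 2.09. Ednra, the endothelin receptor of contractile cells, stood at 374 CPM against 1.04 in endothelial nuclei. The 2 subunits of the nitric oxide receptor, Gucy1a1 and Gucy1b1, stood at 276 and 538 CPM against 12.5 and 13.6. P2ry14, a receptor for UDP-sugars often listed with pericyte genes, stood at 546 CPM against 14.6 in endothelial nuclei, but all other barcodes together held 268 CPM, against 50.7 for Gucy1b1, 10.8 for Gucy1a1 and 0.144 to 2.86 for Kcnj8, Ano1 and Ednra.

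Matrix and transcription factor genes completed the profile. Vtn, which encodes vitronectin, stood at 2587 CPM in mural nuclei, 533 in fibroblast and 32.4 in endothelial nuclei. The laminin chain Lama2 stood at 1136 CPM in mural and 1236 in fibroblast nuclei, whereas Fn1, fibronectin, had 0 UMIs in mural nuclei and 369 CPM in endothelial nuclei. Ebf1, an early B cell factor family member, had a UMI in 92.1% of mural nuclei and was also at 1667 CPM in endothelial nuclei. Tbx2, by contrast, stood at 191 CPM in mural nuclei with 0 UMIs in endothelial nuclei.

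**Figure D1:**
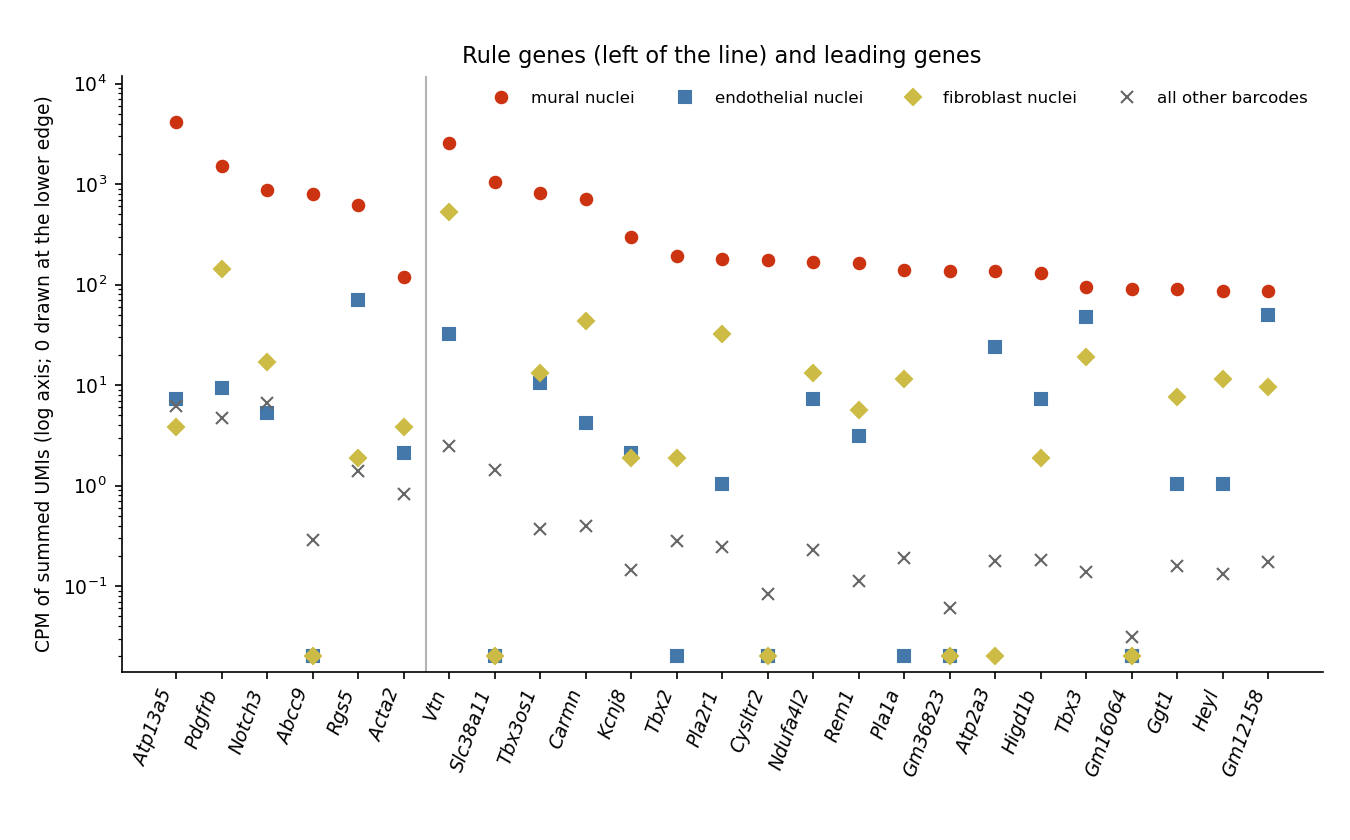
CPM on a vertical log axis of the 6 selecting genes and the leading genes named above in mural, endothelial, fibroblast and all other barcodes; a value of 0 is drawn at the lower edge. Mural nuclei lie highest for each gene because the rule and the ranking chose them, and the distance to endothelial nuclei differs between genes: it is 1.73-fold for Gm12158 and 170-fold for Carmn, and Slc38a11 has 0 UMIs in endothelial nuclei.

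The mural nuclei that the rule chose were mostly of the pericyte kind, which the rule set in part. Atp13a5 gave 51.6% of the selecting UMIs and Acta2 1.48%, so the counts below describe the selection and not the tissue. With marker lists that exclude the selecting genes, 486 of 533 nuclei held 4 or more UMIs of 10 pericyte genes, and 22 nuclei (4.13%) held 2 or more UMIs of 8 contractile genes and more of these than of the pericyte genes. This contractile-rich class is a range of a score: 17 of its nuclei held 8 or more contractile UMIs, and 5 lay within 2 UMIs of the limit. Another 101 nuclei held 2 or more contractile UMIs without exceeding their pericyte UMIs and are outside the class. Its nuclei had 2036 CPM of Myh11, smooth muscle myosin, against 51.6 in the 472 nuclei that were neither contractile-rich nor mixed with glial markers. Tagln, an actin-binding protein of smooth muscle, stood at 1249 against 9.76 CPM, and both genes are on the list that chose the class.

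Genes on neither of these lists also stood at different levels in the 2 kinds of nuclei. Myocd, the coactivator that drives smooth muscle genes, stood at 288 CPM in the 22 contractile-rich nuclei against 5.58 in the 472 others, and the calcium release channel Ryr2 at 384 against 37.6. Abcc9 had 0 UMIs against 979 CPM, and Atp13a5 stood at 595 against 4999 CPM. Kcnj8 with 0 UMIs against 372 CPM and Slc6a20a with 76.8 against 1941 CPM are on the pericyte list, so the definition of the class made them lower. Notch3 at 980 against 955 CPM, Slc38a11 at 980 against 1233, Carmn at 960 against 804 and Ednra at 423 against 432 were close in level in both kinds of nuclei. Of these, Abcc9, Atp13a5 and Notch3 had a part in the selection and Slc38a11 is on the pericyte list. All these nuclei are pooled over 14 libraries and no test was made.

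**Figure D2:**
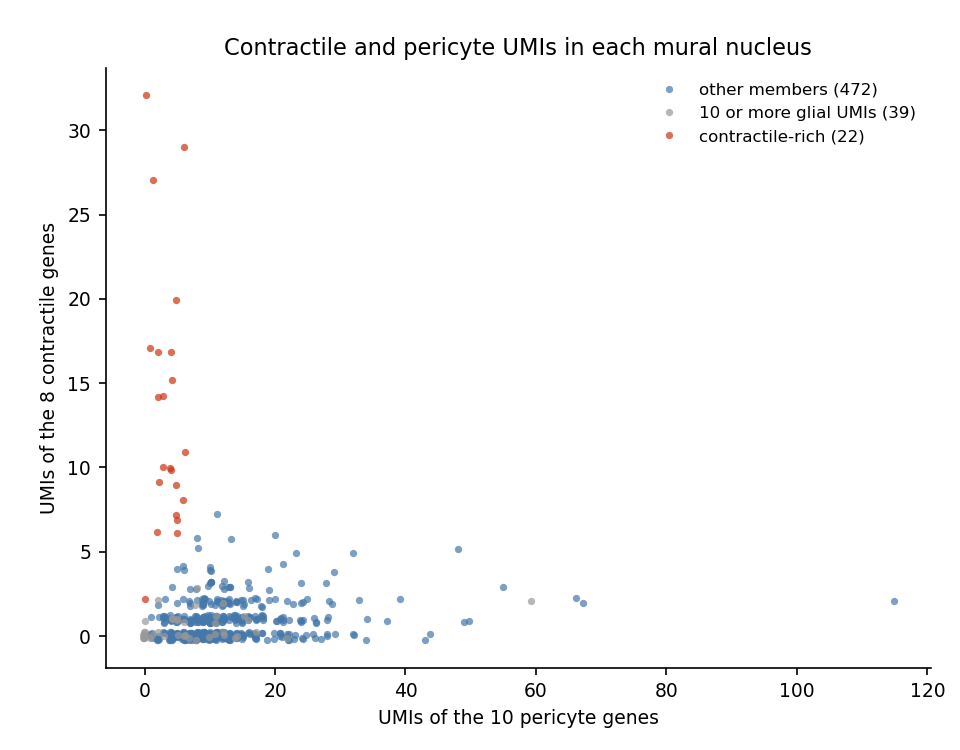
UMIs of the pericyte list (horizontal axis) and of the contractile list (vertical axis) in each of the 533 mural nuclei, coloured by class. The 22 contractile-rich nuclei rise along the vertical axis at few pericyte UMIs, and the 39 nuclei with 10 or more glial UMIs outside that class lie among the 472 others.

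Grouping the 490 nuclei with under 10 glial UMIs by their expression gave 8 subsets. Subset 8, with 22 nuclei from 9 libraries, was led by Acta2, Entpd1, Tagln, Prdm16, Pdlim3, Palld and Sorbs2, contained 15 of the contractile-rich nuclei and was smooth muscle-like. Subsets 5 (56 nuclei) and 7 (34 nuclei) were led by Ptgds with ribosomal protein genes and by neuronal transcripts such as Nkain2, Csmd1 and Syt1, and stay unnamed. The other 5 subsets, of 100, 88, 81, 75 and 34 nuclei, each came from 11 or more libraries and also stay unnamed.

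The share of mural nuclei varied widely between libraries. WT libraries had 0.325%, 0.531% and 0.522% mural nuclei and PS19 libraries 0.432%, 0.862% and 0.523%. CLEAR libraries had 0.310%, 0.360%, 0.611% and 0.361%, and CLEAR_PS19 libraries 0.160%, 0.0498%, 0.489% and 0.0624%. Of the CLEAR_PS19 libraries, 3 lay below every other library, and the fourth, replicate 3, lay within the range of WT. CLEAR_PS19 replicates 2 and 4 were also the shallowest libraries, with median depths of 3620 and 3479 UMIs, and with barcodes of 300 or more genes their mural nuclei numbered 14 and 15 in place of 8 and 6. The lowest share, in CLEAR_PS19 replicate 2, had an exact 95% binomial interval of 0.0215% to 0.0981%, and the highest, in PS19 replicate 2, one of 0.691% to 1.06%; these intervals cover counting error only.

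No genotype difference in the mural share passed an exact permutation test over the 14 libraries with barcodes of 500 or more genes, although the CLEAR difference did with barcodes of 300 or more genes (-0.229 percentage points, exact permutation p of 0.0449) and 2 differences did with 1 library left out. Group means were 0.459% ± 0.116 (SD, n = 3) in WT, 0.606% ± 0.227 (SD, n = 3) in PS19, 0.410% ± 0.136 (SD, n = 4) in CLEAR and 0.190% ± 0.205 (SD, n = 4) in CLEAR_PS19. Averaged over both backgrounds, mice with the tau transgene had 0.037 percentage points fewer mural nuclei, with p = 0.749 in an exact two-sided permutation test over libraries. Mice with the CLEAR mutation had 0.232 percentage points fewer, with an exact permutation p of 0.0531. Without CLEAR_PS19 replicates 2 and 4 the CLEAR difference fell by size to -0.165 percentage points with an exact permutation p of 0.229, and with barcodes thinned to 1500 UMIs it was -0.124 with an exact permutation p of 0.300. Thinning drops barcodes under 1500 UMIs, which were 288 of the 533 mural nuclei, and applies the rule anew to the rest. It therefore does not follow the same nuclei. The CLEAR difference passed without WT replicate 1 (-0.266, exact permutation p of 0.0229), CLEAR replicate 3 (-0.266, 0.0186) or CLEAR_PS19 replicate 3 (-0.282, 0.0343). The tau difference was 0.367 percentage points lower in the CLEAR background than in the wild-type background, with an exact permutation p of 0.0629. That p was 0.020 without CLEAR_PS19 replicate 3 and 0.0286 without PS19 replicate 1, and with barcodes of 1000 or more genes the difference was -0.0914 with an exact permutation p of 0.537. The limit of 1000 genes leaves out most mural nuclei, whose median was 867 genes.

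Endothelial nuclei (4 or more UMIs of Flt1 and Cldn5, at most 2 of the mural genes) were likewise the largest share on average in PS19 and the smallest in CLEAR_PS19, whereas from WT to CLEAR their mean was higher and the mural mean lower. They made up 0.331% ± 0.157 (SD, n = 3) of WT, 0.649% ± 0.373 (SD, n = 3) of PS19, 0.424% ± 0.220 (SD, n = 4) of CLEAR and 0.178% ± 0.126 (SD, n = 4) of CLEAR_PS19 barcodes. Per 100 endothelial nuclei there were 150 ± 39.4 (SD, n = 3) mural nuclei in WT, 100 ± 20.3 (SD, n = 3) in PS19, 105 ± 29.1 (SD, n = 4) in CLEAR and 92.1 ± 44.5 (SD, n = 4) in CLEAR_PS19. On this scale CLEAR_PS19 no longer stood apart, and the difference of the tau effect between backgrounds changed sign to 37.3 with an exact permutation p of 0.374. Fewer mural cells in the tissue and fewer vascular nuclei recovered from it cannot be told apart.

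**Figure D3:**
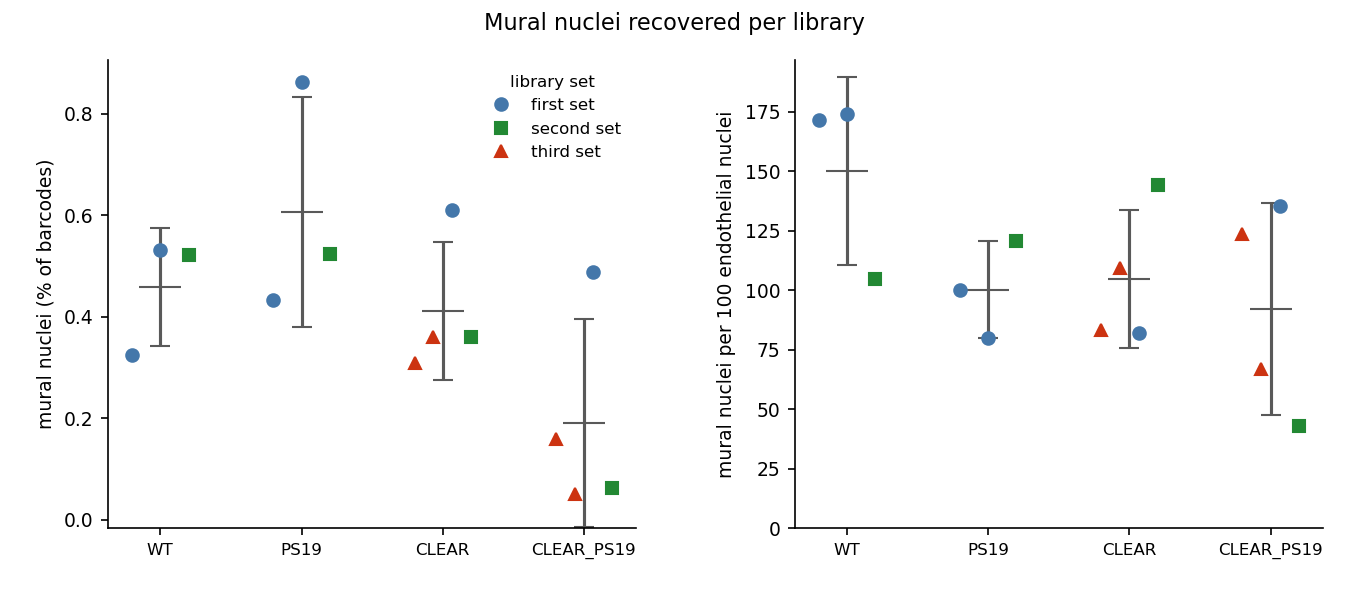
Mural nuclei as a percentage of barcodes (left) and per 100 endothelial nuclei (right) in each library by genotype, with the mean and SD of each group; marker shapes give the library set described below. The points of 3 CLEAR_PS19 libraries lie at 0.160% or less on the left, and the groups overlap on the right.

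The contractile-rich share of mural nuclei rested on very few nuclei. It was 4.81% ± 2.05 (SD, n = 3) in WT, 3.28% ± 3.19 (SD, n = 3) in PS19, 4.41% ± 5.23 (SD, n = 4) in CLEAR and 1.19% ± 2.38 (SD, n = 4) in CLEAR_PS19. The tau difference was -2.38 percentage points with an exact permutation p of 0.199, and the CLEAR difference -1.25 with p = 0.556 in the same exact test. A change in the balance of smooth muscle and pericyte nuclei was not detectable at this depth.

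Atp6v1h, the gene named for the CLEAR mutation, was checked first among genes. It had 79 UMIs in all mural nuclei, between 0 and 18 per library, and 105 in endothelial nuclei. The CLEAR difference in mural nuclei was -0.30 on the log2 CPM scale with an exact permutation p of 0.541, and in endothelial nuclei -0.63 with an exact permutation p of 0.102. The 2 cell types did not differ in this beyond the spread (exact permutation p of 0.673). At this depth the labels could not be checked from Atp6v1h in mural nuclei. Mapt, counted on a mouse reference, differed by -1.56 ± 0.68 (SE) on the log2 scale with tau (edgeR adjusted p = 0.658).

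Gene expression within mural nuclei was compared on UMIs summed per library in the 12 libraries with 10 or more of them, which leaves 2 for CLEAR_PS19. None of 1923 genes passed an adjusted p of 0.05 in edgeR's quasi-likelihood test for tau, for CLEAR or for the difference of the tau effect between backgrounds (0.00% called each). At an unadjusted p under 0.05 there were 131 genes (6.81%) for tau, 90 (4.68%) for CLEAR and 82 (4.26%) for the difference. DESeq2 called 12, 0 and 0 genes. The 12 were all lower with tau and included Slc1a2, Gpc5, Ptprz1, Rgs20, Dtna and Gpm6b, genes of astrocytes.

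The glial markers tested in the main comparison were negative with tau and not called by edgeR. Calls in other settings went both ways. All 9 tested markers of astrocytes, oligodendrocytes, their precursors and microglia were negative, 4 of them at an unadjusted p under 0.05. P2ry12 was the only microglial marker among them. With no filter on low counts edgeR called C1qa, another microglial marker, higher (2.87, adjusted p = 0.0020). Slc1a2, the main glutamate transporter of astrocytes, stood in mural nuclei at 1111, 1081 and 1094 CPM in WT and at 50.4, 228 and 377 CPM in PS19. In CLEAR it stood at 1652, 19.6, 673 and 1642 CPM, and in CLEAR_PS19 replicates 1 and 3 at 0 and 12.4. WT and PS19 did not overlap, and CLEAR spanned both; the log2 difference was -4.39 ± 0.83 (SE), with an edgeR adjusted p of 0.0893. Slc1a2 was called by edgeR with no filter on low counts (adjusted p = 1.4e-18), without WT replicate 3 (0.0306) and without CLEAR replicate 2 (9.2e-04), and with no filter so were the astrocyte marker Slc4a4 (-2.36) and the precursor marker Cspg5 (-2.31). The 7 astrocyte markers together stood at 1559 to 2011 CPM in WT, 227 to 660 in PS19, 118 to 3250 in CLEAR and 161 to 193 in CLEAR_PS19, with none at 0 UMIs over all mural nuclei. Of the mural nuclei, 15 held 10 or more astrocyte UMIs, 7 of them from WT. With the glia-mixed nuclei left out, 44 of 1506 genes had an unadjusted p under 0.05 for tau and 0 were called by edgeR.

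The genes that define mural cells were near level with tau. Of 9 tested pericyte genes 6 were positive with a median log2 difference of 0.07, and of 12 shared mural genes 9 were positive with a median of 0.10, against -0.01 over all 1923 genes. For the selecting genes, as a description, Atp13a5 stood at 4794 ± 138 CPM (SD, n = 3) in WT, 4249 ± 450 (SD, n = 3) in PS19, 3972 ± 949 (SD, n = 4) in CLEAR and 4291 ± 1609 (SD, n = 4) in CLEAR_PS19. Pdgfrb ranged from 1130 to 1886 CPM over the 14 libraries and Notch3 from 512 to 1665 CPM. The rule set these levels in part, so nothing is read from them about the genotypes.

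Contraction and vessel tone genes gave small differences with tau. Prkg1, the cyclic GMP-dependent kinase, differed by 0.13 ± 0.23 (SE), Gucy1b1 by 0.11 ± 0.21 and the phosphodiesterase Pde5a by 0.38 ± 0.25 on the log2 scale. The calcium channel Cacna1c differed by 0.44 ± 0.26 and Ano1 by 0.33 ± 0.19. Cacna1c, Ano1 and Stim1, a sensor of calcium stores, were the only 3 positive genes of the 10 tested ion channel genes. The other channels were not positive, and the 10 had a median of -0.02 and ran from -0.57 to 0.63. Of the 10 only Stim1 had an unadjusted p under 0.05 (log2 difference 0.63 ± 0.26, edgeR adjusted p = 0.616). Of 9 tested vasoactive and cyclic GMP genes, 7 were positive and 0 reached that level, with a median of 0.11. Of 3 tested contractile genes, Mylk differed by 0.01, Myh11 by -0.17 and Myl9 by -0.51.

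Matrix, growth factor and transport genes were likewise not called. Of 10 tested basement membrane and integrin genes 6 were positive with tau (median 0.09), of 8 transporters 6 (median 0.09), of 5 Notch and PDGF genes 3 (median 0.20), of 5 TGF-beta and angiogenic genes 3 (median 0.0038) and of 9 transcription factors 7 (median 0.09). Itga1, a collagen receptor, differed by 0.12 ± 0.22 (SE), Maml2, a Notch coactivator, by 0.20 ± 0.24 and Ebf1 by 0.09 ± 0.18. Lysosomal genes were mostly too low to test: 3 of 18 proton pump genes and 5 of 30 lysosome and TFEB genes passed the filter. Of these Atp6v0c, a subunit of the membrane ring of the pump, differed by -0.62 ± 0.27 with tau (unadjusted p = 0.0339, edgeR adjusted p = 0.641) and by 0.30 ± 0.26 with CLEAR.

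Inflammation genes were positive with tau and did not pass the test. All 6 tested of the 24 listed were positive, with a median log2 difference of 0.63 against -0.01 over all genes. Osmr, a receptor chain for oncostatin M, stood at 192, 151 and 120 CPM in WT and 353, 165 and 189 in PS19, and at 69.8, 78.4, 84.2 and 83.8 CPM in CLEAR and 165, 161, 249 and 185 in CLEAR_PS19. CLEAR and CLEAR_PS19 did not overlap for Osmr and WT and PS19 did, but CLEAR_PS19 replicates 2 and 4, with 2 UMIs and 1 UMI, were not in the gene test. In that test the log2 difference with tau was 0.95 ± 0.28 (SE), with an unadjusted p of 0.0044 and an edgeR adjusted p of 0.291. Over 21 alternatives it ran from 0.79 to 1.09 with adjusted p from 0.109 to 1.00, and it was 1.00 in the pericyte-rich nuclei alone. It rests on 151 UMIs in all, of which 32 were from WT and 21 from CLEAR. Microglial transcripts did not go one way. P2ry12, the only microglial marker tested in the main comparison, differed by -0.40 ± 0.65 (SE). With no filter on low counts edgeR called C1qa, C1qb and C1qc higher with tau by 2.87, 2.73 and 3.14 (adjusted p = 0.0020, 0.0329 and 0.0329). These are complement genes of microglia picked here after their values were seen, and C1qa is also on the microglial marker list. The 8 microglial markers, none at 0 UMIs, summed to 108 to 555 CPM in WT, 315 to 629 in PS19, 74.8 to 442 in CLEAR and 137 to 1292 in CLEAR_PS19, and their part in the inflammation genes was not tested. Cp, ceruloplasmin, which astrocytes also express, differed by 0.63 ± 0.22 with an adjusted p of 0.455, and by 0.27 in the pericyte-rich nuclei.

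No gene of the pericyte list was called with the CLEAR mutation, except that Vtn was with the replicate number as a block (1.79, edgeR adjusted p of 0.0122). Of its 9 tested genes 8 were positive, with a median log2 difference of 0.35 against -0.02 over all genes, and 3 of the 9 had an unadjusted p under 0.05, beside 4.68% of all genes. These were Vtn at 1.13 ± 0.37 (SE), Kcnj8 at 1.02 ± 0.41 and P2ry14 at 0.76 ± 0.24, each with an edgeR adjusted p of 0.972. Lama2 differed by -0.53 ± 0.22, and Timp3, an inhibitor of metalloproteinases, by 2.17 ± 0.58, also with an adjusted p of 0.972. Timp3 stood at 0 to 86.5 CPM in WT and 93.0 to 519 in CLEAR, from 9 and 60 UMIs, and at 17.1 to 110 in PS19 and 99.5 to 220 in CLEAR_PS19. It was called by edgeR in 2 of 20 alternatives, with no filter on low counts (adjusted p = 0.0107) and without WT replicate 2 (3.66, adjusted p = 0.0450). Markers of other cells differed in the CLEAR contrast at an unadjusted p under 0.05 as well. The fibroblast marker Ranbp3l differed by 2.10 ± 0.92, the oligodendrocyte marker St18 by -2.63 ± 1.09, the astrocyte marker Slc1a2 by -2.11 ± 0.96 and the precursor marker Cspg5 by -1.73 ± 0.75. With no filter edgeR called Ranbp3l, St18 and Slc1a2 (adjusted p = 0.0060, 6.6e-04 and 0.0088). The 8 fibroblast markers, 1 of them at 0 UMIs, summed to 60.0 to 108 CPM in WT, 50.4 to 611 in PS19, 101 to 1478 in CLEAR and 0 to 771 in CLEAR_PS19, and their part in these differences was not tested. No selecting, contractile or shared mural gene was called in any setting tried for CLEAR, and 0 of 12 shared mural genes reached an unadjusted p under 0.05.

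The libraries were divided into 3 sets, a number fixed in the clustering and not found by it. One set was the females and the other 2 are not given by the labels, and 3 of the 9 tested pericyte genes followed the third. Correlations between libraries of summed granule neuron nuclei, which hold none of the mural nuclei, separated the first set (WT 1 and 2, PS19 1 and 2, CLEAR 3 and CLEAR_PS19 3), the second set, of the 4 females, and the third set, of CLEAR 1 and 2 and CLEAR_PS19 1 and 2. Only CLEAR genotypes are in the third set. The sets were defined from these data and are not a labelled batch.

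Vtn stood at 3629 and 5745 CPM in CLEAR 1 and 2 and at 8977 and 6539 CPM in CLEAR_PS19 1 and 2. It stood at 1758 and 2329 CPM in CLEAR 3 and 4, at 2026 and 2589 in CLEAR_PS19 3 and 4, and at 1729 to 2540 in the 6 WT and PS19 libraries. The CLEAR libraries outside the third set thus lay within or next to the WT and PS19 range. Kcnj8 repeated the split, with 721, 667, 799 and 727 CPM in the third set against 154 to 370 CPM in the other 10 libraries. Ndufa4l2, a mitochondrial protein that pericytes express, stood at 279, 333, 413 and 484 CPM against 0 to 192.

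With the library set as a block in the edgeR fit, the CLEAR difference of Vtn was 0.15 with an unadjusted p of 0.504 and that of Kcnj8 0.08 with an unadjusted p of 0.750. P2ry14 stood at 0.44 and Lama2 at -0.31, and Timp3 at 2.26 with an edgeR adjusted p of 1.00. For the mural share, the CLEAR difference within sets was -0.126 percentage points, with an exact permutation p of 0.389 and a smallest possible p of 0.0278 over 36 relabellings. Only the first and second sets hold both CLEAR and wild-type alleles, with 1 library of each CLEAR genotype in each. In the edgeR fits CLEAR_PS19 replicate 4 was left out, so there the second set held no CLEAR_PS19 library.

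The genes that followed the third set were short. Of 1922 tested genes, 21 (1.09%) were higher in each of the 4 libraries of the third set than in each other library, and these included 3 of 9 pericyte genes and 0 of the 6 selecting genes. With the tested genes divided by length into 3 classes of equal number, all 21 lay in the shortest class, whose genes span 681 to 58648 bases. They included Rem1, a small GTPase, the lysosomal genes Psap and Cd63, the autophagy receptor Sqstm1, the glycolytic genes Gapdh and Aldoa, Jund and 4 ribosomal protein genes, Rpl5, Rps13, Rps24 and Rps29. The median log2 ratio of the third set to the others was 0.30 in the shortest class, -0.17 in the middle class and -0.49 in the longest class. Vtn spans 3234 bases on chromosome 11, Kcnj8 6778 bases and Ndufa4l2 2188 bases on chromosome 10.

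Most genes of the longest class went the other way, and some did not. Prkg1, which spans 1200545 bases, stood at 1955 to 2260 CPM in the third set and 3317 to 5221 in the others, and Maml2, of 411432 bases, at 565 to 716 against 945 to 1728 CPM. Atp13a5, of 146882 bases, overlapped, with 2422 to 4140 against 2722 to 6288 CPM. Maml3, of 419170 bases, and Mitf, of 214298 bases, were not lower, with 336 against 321 and 203 against 116 CPM summed over libraries. Slc38a11, which at 47605 bases is in the shortest class, overlapped too.

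Other cell types showed the same split by length. The shortest class of genes took 49.7% to 56.3% of the tested genes' UMIs in mural nuclei of the third set and 37.9% to 47.4% in the other 10 libraries. In endothelial nuclei the share was 46.9% to 53.6% against 35.7% to 40.4%, and in granule neurons, which defined the sets, 28.8% to 30.3% against 21.1% to 24.9%. The part of RNA quality, nuclear isolation or sequencing in this was not tested, and in the third set the CLEAR mutation and the set cannot be told apart.

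**Figure D4:**
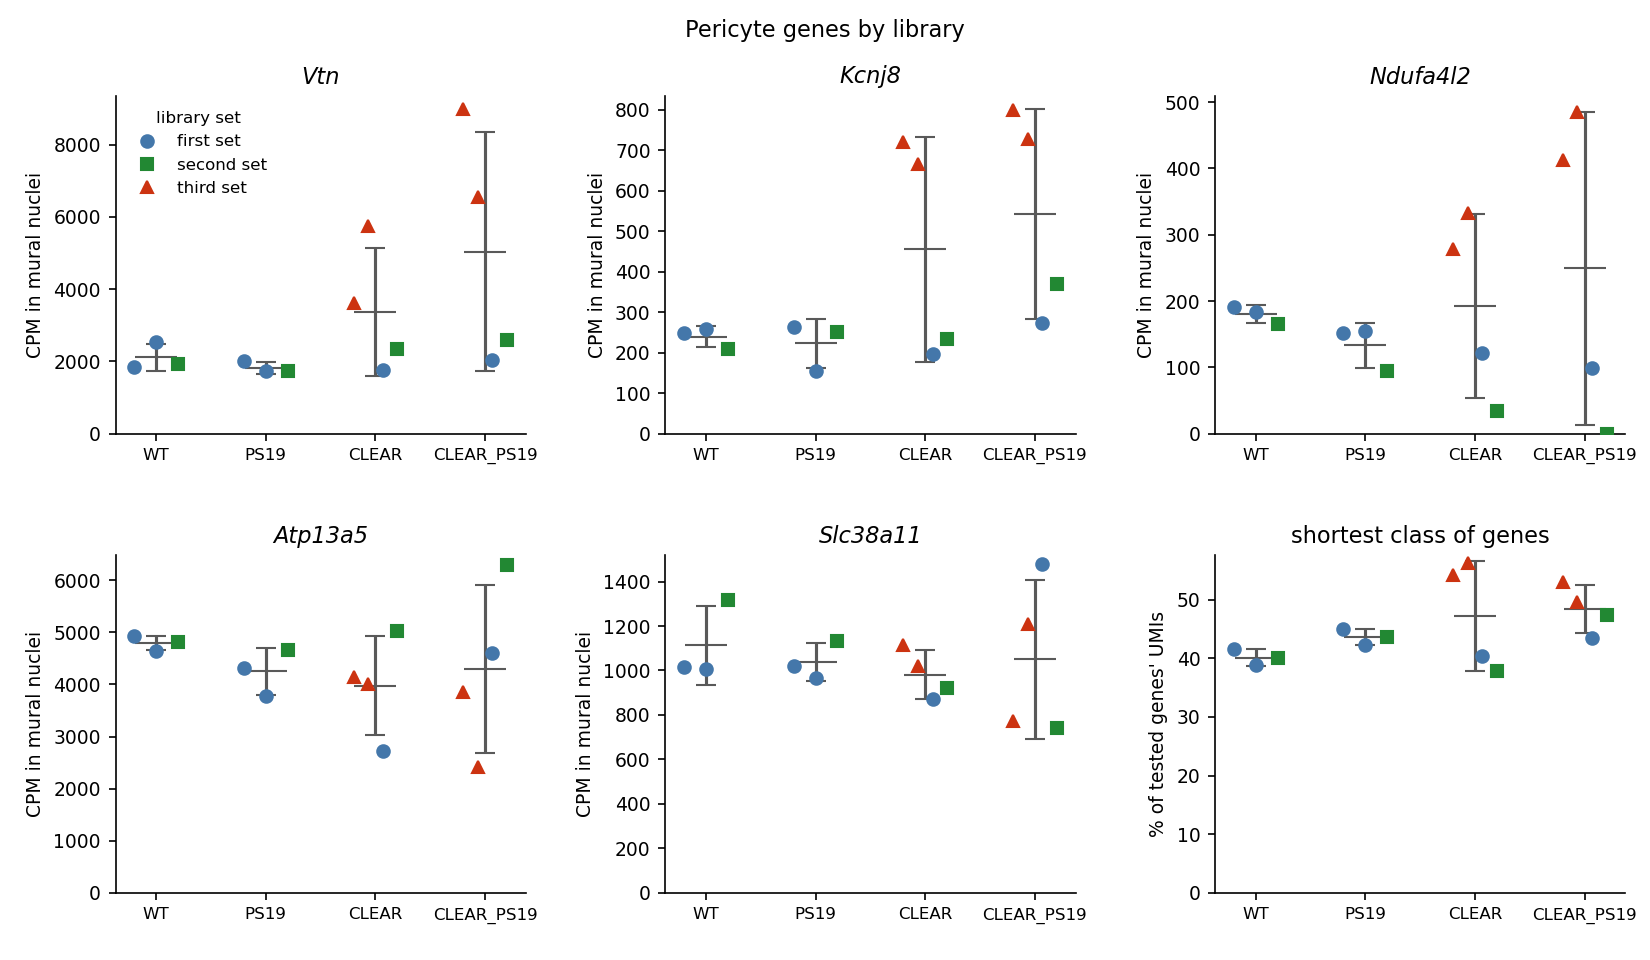
Vtn, Kcnj8, Ndufa4l2, Atp13a5 and Slc38a11 (CPM in mural nuclei) and the share of UMIs on the shortest class of genes (percent), each library by genotype, with the mean and SD of each group and marker shapes for the library set. The 4 libraries of the third set stand above the other 10 for Vtn, Kcnj8, Ndufa4l2 and the short-gene share, and overlap them for Atp13a5 and Slc38a11.

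The bulk libraries, which had no part in choosing the nuclei, measured the mural genes in whole tissue of PS19 mice. At 9 months most mural genes had a positive difference of PS19 from WT, and 6 passed the test, none of which did so without WT replicates 4 and 5. These 2 libraries were the lowest of WT for the summed contractile (55.9 and 52.3 CPM against 73.6 to 115), pericyte (92.1 and 95.2 against 132 to 164), fibroblast (94.3 and 85.7 against 139 to 179) and endothelial markers (283 and 261 against 321 to 349). Of 38 genes (the 6 selecting genes and the contractile, pericyte and shared mural lists) 37 could be tested, and 33 were positive, with a median log2 difference of 0.34 against -0.01 over all 16133 genes. By edgeR at an adjusted p under 0.05, 5 of the 37 were called higher, beside 7.68% of all genes tested, and 1 was called lower, beside 5.09%. In all 6 of 37 (16.2%) were called beside 12.8% of all genes, so the number called was near the background. Without WT replicates 4 and 5 none of the 37 was called (7 at an unadjusted p under 0.05 in edgeR), 30 were positive and their median was 0.24. In bulk tissue fewer or more cells of a type and less or more RNA per cell cannot be told apart.

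Kcnj8 stood at 3.10, 2.17, 3.73, 2.20 and 2.61 CPM in WT at 9 months and at 4.50, 4.43, 4.13 and 4.03 in PS19. Vtn stood at 86.0, 88.4, 78.0, 47.4 and 51.5 CPM in WT and at 108, 105, 95.0 and 109 in PS19. For both genes every PS19 library lay above every WT library, as for Ednra below. How many of all genes tested separate the groups in this way was not counted, so nothing is read from it. The log2 difference was 0.62 ± 0.18 (SE) for Kcnj8 with an adjusted p of 0.0263 and 0.57 ± 0.16 for Vtn with an adjusted p of 0.0209. Without WT replicates 4 and 5 these were 0.50 with an adjusted p of 0.160 and 0.31 with 0.169, from edgeR.

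Ednra, the endothelin receptor, stood at 5.41, 7.50, 6.20, 5.77 and 4.58 CPM in WT and at 8.57, 8.54, 7.57 and 8.74 in PS19, again without overlap (log2 difference 0.51 ± 0.15, adjusted p = 0.0303). Mcam, an adhesion molecule of mural and endothelial cells, stood at 20.2 to 28.5 CPM in WT and 22.0 to 39.8 in PS19, with overlap (0.46 ± 0.14, adjusted p = 0.0330). Myl9, the smooth muscle myosin light chain whose window with the CArG box is given above, stood at 9.61 to 23.4 CPM in WT and 17.3 to 31.1 in PS19, with overlap (0.70 ± 0.23, adjusted p = 0.0465). Gucy1b1 was called lower, at 148 to 179 CPM in WT and 135 to 149 in PS19 (-0.16 ± 0.05, adjusted p = 0.0485). It is also a neuronal gene: 24.7% of the non-mural barcodes in the nuclei libraries held a UMI of it.

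These calls were close to the threshold. Over 27 alternatives Vtn was called in 22, Ednra in 20, Kcnj8 and Mcam in 19, Myl9 in 12 and Gucy1b1 in 8. The 27 include leaving out each of the 6 WT and 6 PS19 libraries at 4 months. Those settings keep both 9-month groups whole and act only through the shared fit, so these counts overstate how firm the calls are. Without WT replicate 4 or without PS19 replicate 5 none of the 37 genes was called, and with only the 9-month groups in the fit 1 was.

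The other mural genes missed the threshold. The 8 contractile genes, which include the called Myl9, were all positive, with a median of 0.77. Tagln differed by 1.16 ± 0.42 (SE) with an edgeR adjusted p of 0.0769, Des, desmin, by 0.94 ± 0.33 with 0.0649 and Myh11 by 0.75 ± 0.31 with 0.113. The summed contractile list stood at 52.3 to 115 CPM in WT and 73.4 to 134 in PS19, so the groups overlapped. The 10 pericyte genes, which include the called Vtn and Kcnj8, were all positive with a median of 0.35. Their sum, of which Vtn was the largest part, stood at 92.1 to 164 CPM in WT and 172 to 204 in PS19. Of the selecting genes, Atp13a5 differed by 0.36 ± 0.14 with an adjusted p of 0.0939, Notch3 by 0.33 ± 0.13 and Pdgfrb by 0.22 ± 0.12.

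Genes of the neighbouring vascular cells were positive too at 9 months, and few passed the test. All 10 endothelial markers were positive, with a median of 0.28, and 2, the transporter Slco1a4 and the adhesion receptor Adgrl4, were called higher, beside 7.68% of all genes. Their sum stood at 261 to 349 CPM in WT and 348 to 404 in PS19. All 8 fibroblast markers were positive with a median of 0.41 and 0 called (1 at an unadjusted p under 0.05 in edgeR); their sum was 85.7 to 179 CPM in WT and 145 to 217 in PS19. Choroid plexus and ependymal markers summed to 688 to 4903 CPM in WT and 4403 to 5627 in PS19, none of the 5 at 0. In the rest of the tissue, all 8 microglial markers were called higher (median 1.02), as were 4 of 7 astrocyte (median 0.26) and 4 of 7 oligodendrocyte markers (median 0.29), and none of the 10 neuronal markers was positive, with 3 called lower (median -0.22). The part of these cells in the mural differences was not tested.

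At 4 months no mural gene was called. Of the 37 genes 10 were positive, with a median log2 difference of -0.08, and edgeR called 0 beside 0.0186% of all genes (3 of 16133), with 2 mural genes at an unadjusted p under 0.05 and 0 called by DESeq2. Kcnj8 stood at a median of 3.43 CPM in WT (2.60 to 3.88) and 3.27 in PS19 (2.08 to 3.70). Vtn stood at a median of 69.4 CPM in WT (59.1 to 87.4) and 61.1 in PS19 (46.8 to 75.2). Both genes overlapped between the groups. The difference between 9 and 4 months was not tested.

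**Figure D5:**
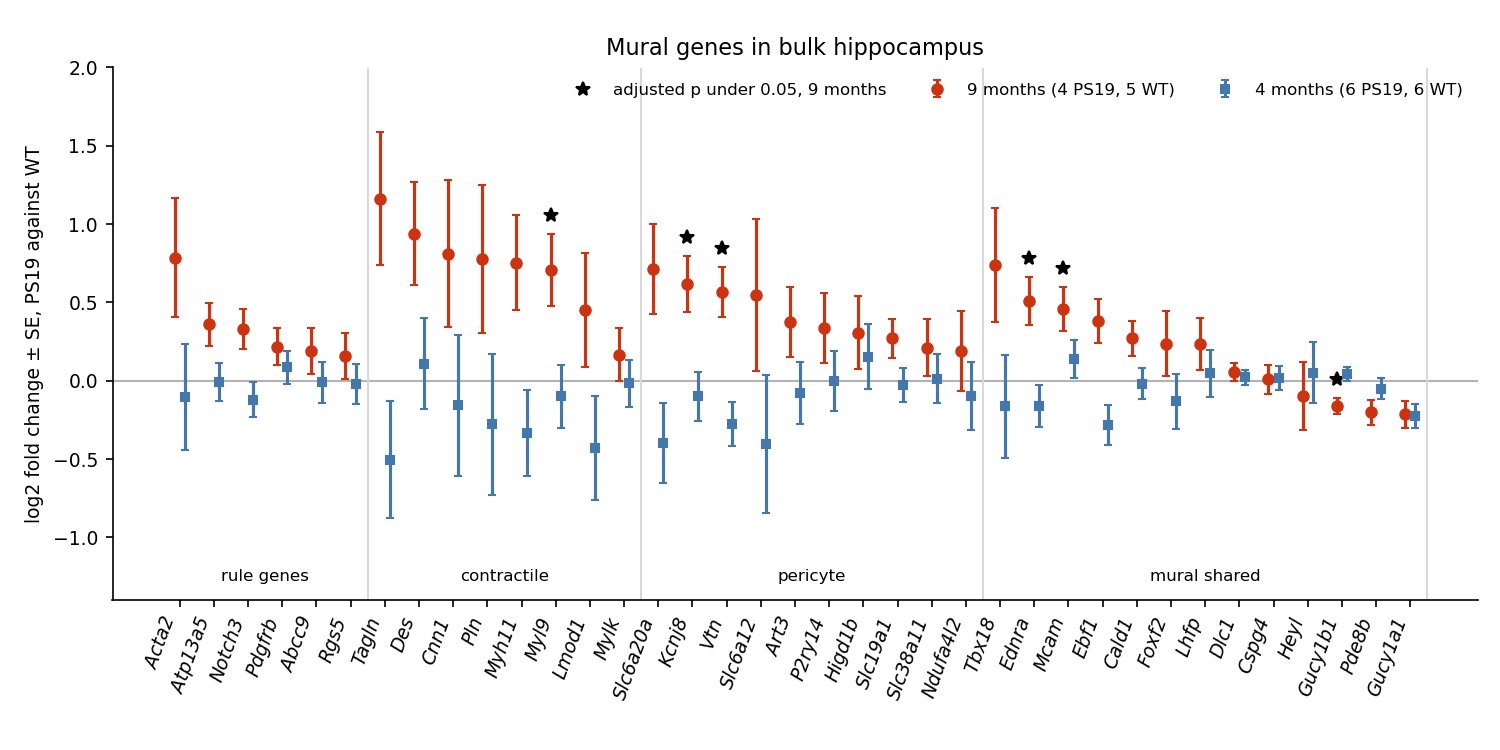
Log2 difference of PS19 from WT in bulk hippocampus with its SE for the 37 tested mural genes at 9 and 4 months; stars mark the 6 genes called at 9 months. Most points lie above 0 at 9 months, with a median of 0.34, and below 0 at 4 months, with a median of -0.08.

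None of the 6 bulk-called genes was called in the nuclei. Among 9-month mural nuclei Kcnj8 differed by -0.01 ± 0.38 (SE) with tau, Vtn by 0.22 ± 0.35, Ednra by -0.08 ± 0.24, Mcam by -0.25 ± 0.39, Myl9 by -0.51 ± 0.37 and Gucy1b1 by 0.11 ± 0.21 on the log2 scale. The errors are wide, and the tau contrast in nuclei averages the wild-type and CLEAR backgrounds, whereas the bulk contrast is PS19 against WT only. These are levels per UMI of mural nuclei, whereas the bulk values are per read of the whole tissue, so the values measure different quantities.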

How the data were processed

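The nuclei files hold whole-number UMI counts per gene and barcode, as the authors deposited them. Per the file headers the counting software was Cell Ranger, version 5.0.1, and the submitters' processing notes also name Seurat and the mm10 build. The bulk files hold raw read counts per gene, deposited by the authors; the notes name cutadapt, STAR, featureCounts and DESeq2, and one file header gives featureCounts 2.0.0 without strand. The nuclei counts per library came from 7540 to 16070 barcodes with 500 or more genes, and the bulk libraries held 9630430 to 17182605 counts. Barcodes with 500 or more genes were kept, and the rule given in the report was applied to the counts. Samples were grouped by their labels.

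Mural UMIs were summed per library, and libraries with 10 or more mural nuclei entered edgeR 4.0.16 (TMM, filterByExpr, quasi-likelihood test, 4 genotype means with sex, Benjamini-Hochberg over all genes) in R 4.3.3. The tau contrast averages PS19 minus WT and CLEAR_PS19 minus CLEAR, and the CLEAR contrast likewise. Bulk libraries were fitted together as 4 groups. Shares were compared by exact two-sided permutation of the label within the other genotype. The alternatives were DESeq2 1.42.0, its size factors, no filter, no sex term, blocks for replicate number and library set, other thresholds, thinning to 1500 UMIs and leaving out each library. Gene models for length and position were GENCODE vM21 and start regions RefSeq on GRCm38.p6. Subsets came from 15 principal components of 1500 variable genes and Leiden clustering at resolution 1.0. Scripts were tested on simulated data.

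The genes named by a rule were the selecting genes, the 4 highest of each list, any called, Atp6v1h, Mapt and the 20 leading genes. Others, among them Slc2a1, Fn1, Ryr2 and Gucy1a1, were named outside this rule. Kcnj8, Ndufa4l2, Stim1, Myocd, Ednra in nuclei and the genes of the third library set were picked after their values were seen. The members and the gene lists were chosen with earlier results of these data known. The largest family was the share tests, and their p-values were not adjusted over each other.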

Additional observations from a re-analysis of the deposited data

Results flagged for a closer look

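Of 98 groups of 4 to 10 libraries checked, 10 had 1 library far from the others by Dixon's criterion, where chance gives about 1 in 20. In the nuclei, CLEAR replicate 3 had a mural share of 0.611% with the next at 0.361%, and it also had Acta2 at 477 CPM in mural nuclei with the next at 118 CPM. CLEAR_PS19 replicate 3 had 4.76% contractile-rich mural nuclei and Acta2 at 174 CPM, and the other 3 libraries of that genotype had 0 for both. Those 3 held only 21, 8 and 6 mural nuclei, and the 4.76% is 2 nuclei. With 3 libraries at 0 any other value meets the criterion, so the rate of 1 in 20 does not apply to these 2 flags. In the bulk libraries at 4 months, WT replicate 6 was high for Mcam at 28.8 CPM (next 23.0) and for Abcc9 at 13.6 CPM (next 9.42). PS19 replicate 5 was high for Tagln at 1.60 CPM (next 0.624), PS19 replicate 6 was low for Ednra at 5.45 CPM (next 6.62), and PS19 replicate 1 was low for Atp13a5 at 12.1 CPM (next 14.3). At 9 months PS19 replicate 4 was low for Ednra at 7.57 CPM (next 8.54).

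Among 2049 barcodes with at least 300 but under 500 genes, which lie outside the selection, 38 (1.85%) met every other condition for mural nuclei. A count of 0 would allow a share of up to 0.146%.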

How the results depend on the processing

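The mural share with tau turned from -0.037 to 0.0303 percentage points without CLEAR_PS19 replicates 2 and 4, and ran from -0.101 to 0.0067 with 1 library left out. The CLEAR difference in the mural share passed the threshold at -0.229 (exact permutation p = 0.0449) with barcodes of 300 or more genes, a setting added after seeing the data, and ran from -0.282 to -0.168 (p = 0.0186 to 0.130) with 1 library left out, passing without WT 1, CLEAR 3 or CLEAR_PS19 3. The difference of the tau effect between backgrounds, also added later, became 37.3 per 100 endothelial nuclei and ran from -0.466 to -0.239 points (exact permutation p = 0.020 to 0.154) with 1 library left out. The contractile-rich share with CLEAR turned to 1.01 points within library sets. The Atp6v1h difference between mural and endothelial nuclei ran from -0.14 to 0.70. Genes called in mural nuclei with tau, none of them a selecting gene or on the contractile, pericyte or shared mural lists, numbered 12 by DESeq2, 60 with no filter on low counts and 0 to 23 with 1 library left out (7 without WT 3, 23 without CLEAR 2). With CLEAR they numbered 18 with no filter, 1 with the replicate block with sex (Vtn) and 0 to 1 with 1 library left out; for the difference of the tau effect, 24 with no filter, 1 with mixed barcodes left out and 0 to 1. Bulk mural genes called at 9 months numbered 1 with only the 2 groups compared, 0 without WT 4 and 5 together (added after seeing the data) and 0 to 9 with 1 library left out (0 without WT 4 or PS19 5, 1 without WT 5), and 0 to 0 at 4 months. Acta2 in nuclei with CLEAR turned from 1.34 to -1.69 without CLEAR_PS19 3 and ran from -1.69 to 2.17 with 1 library left out. Over 29 gene results and their alternatives, 680 values in all, 592 kept direction and side of the threshold, 62 lost it, 25 gained it and 1 reversed direction. Apart from fewer samples or genes tested, the cause was not tested. Whether replicate numbers pair the libraries was not settled. Deviations of same-numbered nuclei libraries correlated at -0.157 to 0.162, and CLEAR_PS19 had only 2 libraries in this check. With the replicate block the share difference had an exact permutation p of 0.719 for tau and 0.156 for CLEAR, and 7 bulk mural genes were called at 9 months. The nuclei are few: 2 of 14 libraries held under 10 mural nuclei.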
